A study of Homo sapiens with 48 samples.

Results

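The replication-dependent histone genes are the protein-coding genes whose symbols begin with H1-1 to H1-5, H2AC, H2BC, H3C or H4C, known earlier as HIST1H to HIST4H. By this rule on symbols, which uses no measured value, 69 of the 48898 genes in the deposited count table were members. They comprised 19 H2B, 17 H2A, 15 H4, 13 H3 and 5 H1 genes. By position 54 lay on chromosome 6, 13 on chromosome 1 and 1 each on chromosomes 12 and 21.

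Poly(A) messenger RNA had been sequenced from 2 human cell lines, IMR-90 fetal lung fibroblasts and SK-MEL-103 melanoma cells. The 48 libraries form 16 groups of 3. In both lines the siRNA experiment held cells given 200 nM doxorubicin for 48 h after transfection, on the preceding day, with siMFN1, siMFN2, both (siMFN1+2), siMAVS or the control siRNA cNEG, with RNA taken on day 7. Its remaining group was proliferating cells with cNEG and no doxorubicin. In a separate IMR-90 experiment, with no siRNA named, cells 7 days past the start of the same doxorubicin treatment received 20 µM MFI8, 10 µM BI or DMSO for 48 h, with RNA on day 9, and were set beside proliferating cells in DMSO. All groups shared the growth medium, DMEM with 10% FBS. Doxorubicin, a topoisomerase II poison, was used to induce senescence; MFN1 and MFN2 fuse mitochondrial outer membranes, and MAVS is the mitochondrial adaptor of RIG-I-like receptors. The labels name no clone, sort or pooling, and each cell type is represented by a single line.

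Nucleosomes wrap DNA around an octamer of the core histones H2A, H2B, H3 and H4, and the linker histone H1 binds where DNA enters and leaves. Cells that replicate DNA make most of their histones from the genes described here, which lie in clusters, lack introns and are transcribed in S phase under NPAT. Their messages normally carry no poly(A) tail. They end instead in a conserved stem-loop, which the stem-loop binding protein SLBP holds and after which the U7 snRNP complex cuts the transcript. When a cell does not cut there, a poly(A) signal further downstream can be used, as has been described in differentiated and arrested cells. A library selected on poly(A) therefore sees the tailed fraction of these transcripts and largely misses the stem-loop form.

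The stem-loop was searched in the GENCODE 29 transcripts, and the 5 sites below are shown because they stand in members on which the results turn and cover the 4 versions of the element that were found. Capitals mark the 16 bases of the stem-loop, written as DNA and 5′ to 3′, with 5 flanking bases on each side in lower case.
H2BC21: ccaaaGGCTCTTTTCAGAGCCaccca
H2AC6: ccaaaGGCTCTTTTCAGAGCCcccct
H2BC4: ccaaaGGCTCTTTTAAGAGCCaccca
H4C8: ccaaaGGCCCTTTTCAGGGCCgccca
H4C14: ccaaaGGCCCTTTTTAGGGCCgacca
Of the 67 members with a GENCODE 29 coding transcript, 29 held the element after the stop codon. The version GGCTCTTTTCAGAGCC stood in 17 members of the H2A, H2B and H3 classes, and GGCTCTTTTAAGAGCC in 4. The versions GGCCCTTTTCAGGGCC in 5 members and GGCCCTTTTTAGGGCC in 3 were in H4 genes. Lack of a match mostly reflected short models: 32 members have a model that ends at the stop codon, and of the 31 whose model runs at least 60 bases past it, 28 held the element. Among 19617 other protein-coding genes, 27 (0.138%) had the same pattern anywhere in a coding transcript. For 21 of the 29, an annotated transcript continued more than 100 bases past the stem-loop: by up to 1729 bases for H2BC21, 1114 for H2AC6, 630 for H4C8, 194 for H4C14 and 116 for H2BC4.

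The promoters of H2AC6 and H2BC21 are shown because both genes are among the 12 members with the highest mean CPM (counts relative to the scaled library size) and stand in different clusters. Each runs from 250 bases before to 50 bases after the RefSeq start (GRCh38.p14), and capitals mark matches, on either strand, to the TATA box TATAAA, the CCAAT box CCAAT and the octamer ATTTGCAT, which is bound by POU2F1.
H2AC6 (chr6:26123922-26124221, plus strand): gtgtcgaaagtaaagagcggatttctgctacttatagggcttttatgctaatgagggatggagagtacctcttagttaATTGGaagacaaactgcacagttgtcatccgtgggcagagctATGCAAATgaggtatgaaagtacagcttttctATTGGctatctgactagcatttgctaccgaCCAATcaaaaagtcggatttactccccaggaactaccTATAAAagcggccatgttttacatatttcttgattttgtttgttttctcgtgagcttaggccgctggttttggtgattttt
H2BC21 (chr1:149886633-149886932, minus strand): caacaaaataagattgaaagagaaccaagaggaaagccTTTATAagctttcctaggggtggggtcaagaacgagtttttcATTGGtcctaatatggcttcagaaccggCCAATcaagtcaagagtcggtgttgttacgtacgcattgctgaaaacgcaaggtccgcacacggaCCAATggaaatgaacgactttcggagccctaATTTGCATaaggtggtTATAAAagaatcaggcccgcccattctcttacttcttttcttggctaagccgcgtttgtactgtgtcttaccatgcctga
The TATA box lies 31 bases before the start of H2AC6 and 30 bases before that of H2BC21. Of 63 members matched to a promoter in the table, 42 (66.7%) held TATAAA, against 12% of all 27305 promoters of the same length. CCAAT was present in 53 members (84.1%), against 35.7% of all promoters; it was in every matched H1, H2A, H2B and H3 promoter and in 3 of 13 H4 promoters. The octamer was present in 26 members (41.3%), against 1.8% of all promoters, and was found in 11 of 16 H2A and 14 of 18 H2B promoters. In both printed promoters no match overlaps another, and a match describes only this window.

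Library totals ran from 15206115 to 79204217 counts and followed the replicate number: replicates 1 held 53390716 counts or more, replicates 2 between 30176556 and 50828283, and replicates 3 at most 31127306. Levels are CPM on library sizes scaled with TMM over the 48 libraries. The fibroblast marker COL1A1 stood at 16001, 17022 and 23749 CPM in doxorubicin-treated IMR-90 cells with cNEG, against 3894, 11494 and 3526 CPM in proliferating ones. In SK-MEL-103 the melanocyte factor SOX10 stood at 576, 644 and 563 CPM, against 562, 442 and 563 CPM, while the pigment genes MLANA and DCT were at most 2.86 CPM. The 8 markers of epithelial, endothelial and blood cells summed to 149 to 225 CPM after doxorubicin in IMR-90, against 201 to 252 CPM, nearly all of it KRT18, and EPCAM stayed at or below 0.137 CPM. The proliferation marker MKI67 had 11.2, 20.1 and 36.3 CPM in doxorubicin-treated IMR-90 cells, against 510, 481 and 457 CPM in proliferating ones, and 0.165, 0.2 and 0.993 CPM in doxorubicin-treated SK-MEL-103 cells, against 353, 232 and 205 CPM. By their ribosomal RNA genes 3 libraries stood apart from their groups. In doxorubicin-treated cells, SK-MEL-103 siMAVS replicate 2 had 5776 CPM of them, with 553 and 429 in the rest of its group, and IMR-90 siMFN1+2 replicate 3 had 4010, with 878 and 1596. Proliferating IMR-90 cNEG replicate 2 had 1271 CPM, with 148 and 124 in the rest of its group, and 20246 CPM over the 9 fibroblast markers, with 6571 and 6141. Counts of called members in the comparisons that use these libraries are given below also without them.

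Over the 69 members, summed levels were higher after doxorubicin in both lines. In IMR-90 the sum was 771, 849 and 578 CPM on day 7, against 185, 101 and 194 CPM in proliferating cells. The means were 733 ± 140 and 160 ± 51.6 CPM (SD, n = 3 each), 4.58-fold apart, and no library of one group reached the other. On day 9 in DMSO it was 889, 753 and 894 CPM, against 264, 182 and 251 CPM, with means of 846 ± 80.1 and 232 ± 44.3 CPM and a 3.64-fold difference. SK-MEL-103 had less in both states, with 179, 174 and 233 CPM after doxorubicin, against 72.0, 116 and 73.6 CPM. These means were 195 ± 32.9 and 87.1 ± 24.8 CPM, 2.24-fold apart, and the groups again did not overlap. Since the members were chosen with results known, the sums carry no test. Fewer cells of a kind and less RNA per cell cannot be told apart in such bulk libraries, nor can more transcript and a larger tailed share.

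The proliferating library that stood apart was the lowest of its group, at 101 CPM. Without it the log2 ratio of the day 7 sums in IMR-90 was 1.95 in place of 2.19. Its small nuclear RNA genes summed to 43.8 CPM, with 6.78 and 8.19 CPM in the rest of its group. Ribosomal RNA genes, which should mostly be lost in poly(A) selection, summed to 772, 988 and 1413 CPM after doxorubicin, against 148, 1271 and 124 CPM in proliferating IMR-90 cells on day 7. On day 9 they summed to 629, 540 and 852 CPM, against 126, 227 and 404 CPM, and in SK-MEL-103 to 579, 598 and 347 CPM, against 313, 354 and 328 CPM. The groups lay apart on day 9 and overlapped in the other 2 comparisons, and the part of these RNAs in the result was not tested. Summed fibroblast markers were also higher after doxorubicin in IMR-90 on day 7, at 24415 to 38371 CPM, against 6141 to 20246 CPM, with 3 of 9 markers called higher. Within each group they ran opposite to the histone sum in the library where they were highest. That library had 38371 CPM of markers and 578 CPM of histones after doxorubicin, and 20246 and 101 CPM in proliferating cells. The part of these markers was not tested either.

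**Figure D1:**
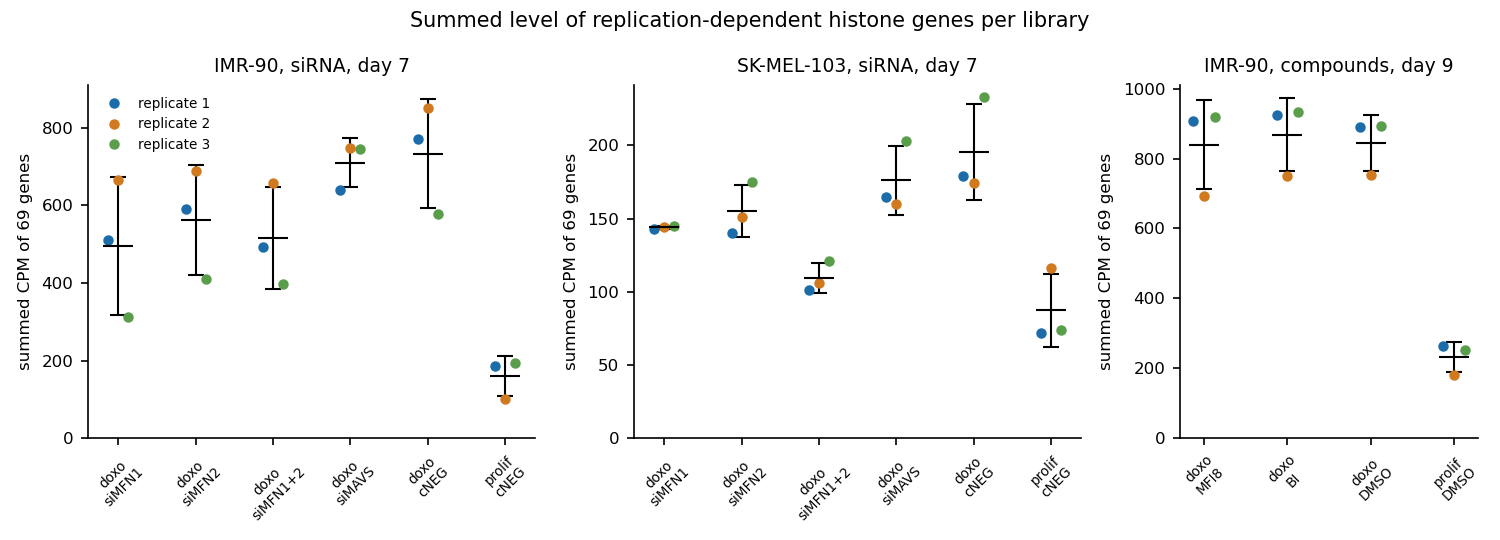
Summed CPM of the 69 replication-dependent histone genes in each library, by group, for the 3 experiments; points are libraries numbered by replicate, horizontal lines are group means and error bars are SDs. The doxorubicin-treated groups with cNEG or DMSO average 733, 195 and 846 CPM, above the proliferating groups at 160, 87.1 and 232 CPM.

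Few members carried most of the sum. The 12 with the highest mean CPM were H2BC12, H2AC6, H2AC18, H2AC19, H2BC21, H1-2, H4C8, H4C14, H4C15, H2BC5, H2BC4 and H2AC25. They held 90.4%, 89.8% and 89.6% of it in doxorubicin-treated IMR-90 cells with cNEG, against 83.2%, 59.4% and 84.7% in proliferating ones. In SK-MEL-103 their mean share was 88.6%, against 81.1%. The 12 were ranked over all 48 libraries, most of them doxorubicin-treated. The ranking thus favours members that are high after doxorubicin, and the larger shares there are not a separate result. Per kilobase of gene model, H2BC12 was the highest in doxorubicin-treated IMR-90 cells at 323 CPM per kb, against 116 in proliferating ones. H2AC18 and its identical copy H2AC19 followed at 141 and 138 CPM per kb, against 11.6 and 11.3, then H1-2 at 109, against 21.7. H2AC6 stood at 71.2, against 11.9. H2BC21 stood at 31.8 CPM per kb, against 2.68, and H4C8 at 16.7, against 1.02. These levels depend on the annotated length, since the model of H2BC12 covers 381 bases and ends at the stop codon while that of H2BC21 covers 2194.

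At the other end, 20 members passed the expression filter of no experiment and together held 1043 of the 891717 member counts, with at most 20 in any library. Among them were H1-1 and the testis-associated H2BC1 and H2AC1, with 9, 4 and 1 counts over all 48 libraries. Most of the 20 had fewer summed counts after doxorubicin than in proliferating cells in IMR-90 on day 7. H2AC16 had 6, against 42, while H2AC7 went the other way with 9, against 1. The filter kept 45 members in the IMR-90 siRNA experiment, 35 in SK-MEL-103, 48 in the compound experiment and 35 in all 3. A member that passed through a single group had to be high there, so counts over the tested members describe these genes and not the whole family.

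On day 7 in IMR-90, 26 of the 45 tested members rose and 2 fell at an adjusted p below 0.05 (edgeR quasi-likelihood test, Benjamini-Hochberg over all genes), where 25.9% of all 19077 genes tested were higher and 23.6% lower. The median log2 fold change was 1.38 over the tested members and 0.09 over all genes. With no filter on low counts 6 members were lower, and the class counts below leave out the members that the filter removed. By class, 12 of 15 tested H2B, 6 of 10 H2A and 5 of 9 H4 genes rose and none of these fell, while 2 of 8 H3 genes rose and 1 fell, and of 3 H1 genes 1 rose and 1 fell. By position 11 of 17 rose in the cluster of chromosome 6 that holds H2AC6, 6 of 14 in its neighbour that holds H2BC12, and 6 of 10 in the cluster of chromosome 1 that holds H2BC21. Without the proliferating library that stood apart, 25 members were higher and 1 lower. Named members kept their calls without it except H3C3, and the log2 fold change of H1-5 was then -3.35 and that of H2BC12 0.99.

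Among the H4 genes, nearly all of which encode the same protein, H4C8 (older HIST1H4H) had 40.3, 47.5 and 20.7 CPM after doxorubicin, against 2.87, 1.58 and 2.14 CPM in proliferating cells. Every treated library was above every proliferating one, and the log2 fold change was 4.0 ± 0.43 (SE, adjusted p = 4e-06, edgeR). H4C5 rose by 3.05 ± 0.54 and the near-identical copies H4C14 and H4C15 by 1.38 ± 0.35 each on the log2 scale (adjusted p = 0.00033, 0.0043 and 0.0044, edgeR). H4C11 and H4C12, at -0.23 ± 0.29 and -0.12 ± 0.32, did not pass the test.

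H2B binds the nucleosome as a dimer with H2A. H2BC21 (older HIST2H2BE), an H2B gene of the chromosome 1 cluster, had 71.0, 84.2 and 54.3 CPM after doxorubicin, against 7.78, 4.36 and 5.50 CPM, a log2 fold change of 3.53 ± 0.36 (adjusted p = 2.7e-06, edgeR). H2BC4 had 22.8, 27.7 and 20.2 CPM, against 3.01, 1.43 and 3.01 CPM (3.21 ± 0.35, adjusted p = 5e-06, edgeR). Both genes had groups far apart relative to their spread, and H2BC8 behaved alike at 3.16 ± 0.38. H2BC12 had 118, 145 and 106 CPM, against 54.2, 13.4 and 65.2 CPM, a smaller log2 fold change of 1.44 ± 0.41 (adjusted p = 0.0089, edgeR). Its lowest proliferating library was again replicate 2. H2BC5 rose by 1.41 ± 0.31, and H2BC9 and H2BC17, at -0.18 ± 0.37 and -0.83 ± 0.69, did not pass.

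H2AC6 (older HIST1H2AC), the H2A gene whose promoter and stem-loop are printed above, had 132, 126 and 99.1 CPM, against 26.0, 9.94 and 23.8 CPM (log2 fold change 2.54 ± 0.27, adjusted p = 4e-06, edgeR). H2AC18 had 83.4, 87.5 and 61.8 CPM, against 7.06, 3.88 and 8.19 CPM (3.57 ± 0.49, adjusted p = 3.9e-05, edgeR). In both, the lowest treated library lay above the highest proliferating one. H2AC25 missed the threshold at 0.89 ± 0.56 (adjusted p = 0.2, edgeR), with 9.75, 10.5 and 7.54 CPM, against 5.60, 3.04 and 6.05 CPM, although its groups did not overlap.

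The linker histone genes parted. H1-2 had 82.2, 81.0 and 47.2 CPM, against 15.3, 6.74 and 19.8 CPM, a log2 fold change of 2.29 ± 0.42 (adjusted p = 0.00044, edgeR). H1-5 was at the edge of detection after doxorubicin, with 2, 3 and 1 counts, against 24, 54 and 14 in proliferating libraries, and fell by 4.23 ± 0.85 on the log2 scale (adjusted p = 0.00093, edgeR). H1-4, at -0.52 ± 0.63, did not pass, and H1-1 and H1-3 were too low to test on day 7. H3C3 was the only other member to fall, by 2.22 ± 0.82 (adjusted p = 0.037, edgeR) on 4, 6 and 3 counts, against 25, 23 and 7, and this call was lost in 5 of 6 fits that left out a library. H3 genes that rose were H3C6, by 2.01 ± 0.26, and H3C10, by 2.36 ± 0.58.

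**Figure D2:**
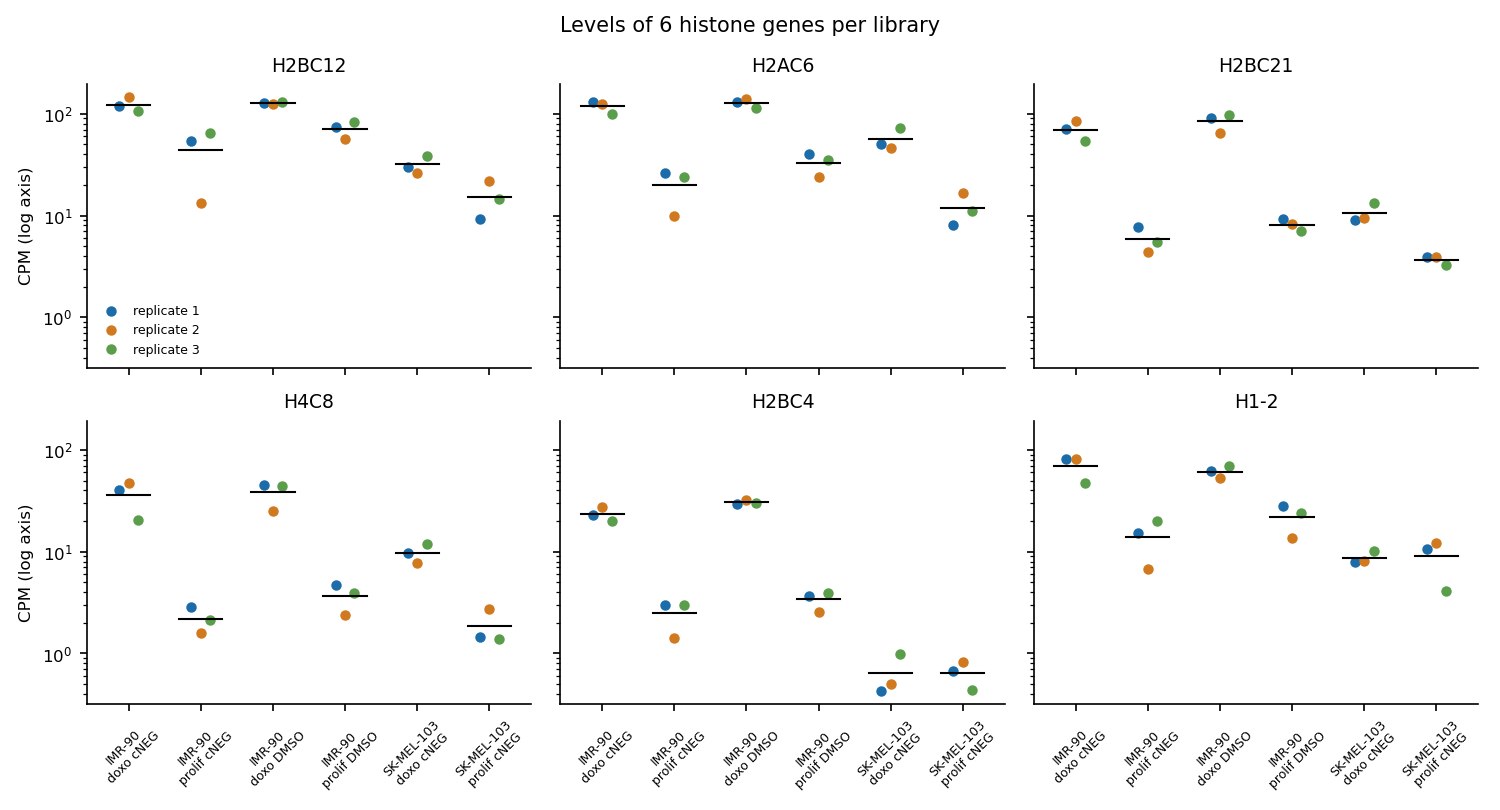
CPM on a log axis of 6 members in each library of the doxorubicin-treated and proliferating groups of the 3 experiments, doxorubicin first; points are libraries coloured by replicate number, and lines are group means. In IMR-90 the treated libraries of H4C8, at 20.7 to 47.5 CPM, lie above the proliferating ones at 1.58 to 2.87 CPM.

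Day 9 in DMSO, an experiment with its own treated and proliferating libraries, gave 27 of 48 tested members higher and 0 lower, where 28.3% of all 19056 genes tested were higher and 26.2% lower. DESeq2 also called 27 and 0, and 29 members had an unadjusted p below 0.05 in edgeR. The median log2 fold change was 1.19 over the tested members and 0.11 over all genes. Of the 26 members called higher on day 7, 25 were called higher on day 9 too (96.2% of the day 7 list and 92.6% of the day 9 list). The overlap over all genes is not given, so this one is not read as particular to the members. By class 11 of 14 H2B, 8 of 11 H2A, 5 of 9 H4, 2 of 10 H3 and 1 of 4 H1 genes rose.

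The highest fold changes were again in H4, H2B and H2A genes. H4C8 had 45.5, 25.3 and 44.5 CPM on day 9, against 4.72, 2.41 and 3.94 CPM (log2 fold change 3.31 ± 0.42), and H2BC21 had 91.7, 64.1 and 96.8 CPM, against 9.22, 8.18 and 7.13 CPM (3.30 ± 0.29; adjusted p = 8.8e-05 and 6.4e-06, edgeR). H4C5, H2AC19, H2AC18 and H2BC4 followed at 3.28 ± 0.55, 3.24 ± 0.25, 3.23 ± 0.26 and 3.10 ± 0.18. In H4C8 and H2BC21 replicate 2 was the lowest treated library and still stood above every proliferating one. H1-5 and H3C3, at -1.33 ± 0.63 and -1.19 ± 0.57, did not pass on day 9 (adjusted p = 0.097 and 0.099, edgeR).

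In SK-MEL-103, 15 of 35 tested members rose and 3 fell, where 29.4% of all 17945 genes tested were higher and 29.9% lower. The number lower was 7 without proliferating replicate 3, 6 without treated replicate 1 and 5 without treated replicate 2 or 3; it was 10 with all 48 libraries in the fit and 12 with no filter on low counts. The median log2 fold change was 0.40 over the tested members and 0.03 over all genes. The 15 were all among the 26 that rose in IMR-90 on day 7 (100% of the shorter list and 57.7% of the longer). They were 8 H2B, 4 H4, 2 H2A and 1 H3 genes. Here too the overlap over all genes is not given. H2AC6 had 50.6, 45.9 and 72.5 CPM after doxorubicin, against 8.05, 16.7 and 11.2 CPM (log2 fold change 2.21 ± 0.25, adjusted p = 8.3e-07, edgeR). H4C8 had 9.65, 7.71 and 11.8 CPM, against 1.46, 2.72 and 1.40 CPM (2.34 ± 0.29, adjusted p = 2.3e-06, edgeR). The groups of both genes lay apart. H2BC5 and H2BC6 rose by 1.89 ± 0.32 and 1.89 ± 0.40, H4C14 by 1.64 ± 0.15 and H2BC12 by 1.05 ± 0.25. H2AC15 had the highest called value, 2.49 ± 0.71, but its libraries overlapped, with 0.248, 0.0601 and 0.496 CPM, against 0.0172, 0.0450 and 0.0962 CPM.

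Members that fell in SK-MEL-103 were of low level. H2AC20 had 11, 6 and 5 counts after doxorubicin, against 66, 29 and 9 (log2 fold change -2.44 ± 0.47, adjusted p = 0.00027, edgeR), and H2AC14 had 2, 2 and 4, against 15, 17 and 4 (-2.38 ± 0.56, adjusted p = 0.0015, edgeR). H3C3 had 3 counts over the treated libraries, against 53 over the proliferating ones, and is given no fold. As in IMR-90, no member called lower was among the 12 with the highest mean CPM. That ranking ran over all 48 libraries, most of them doxorubicin-treated, so it favours members that rise and this absence is no separate result.

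**Figure D3:**
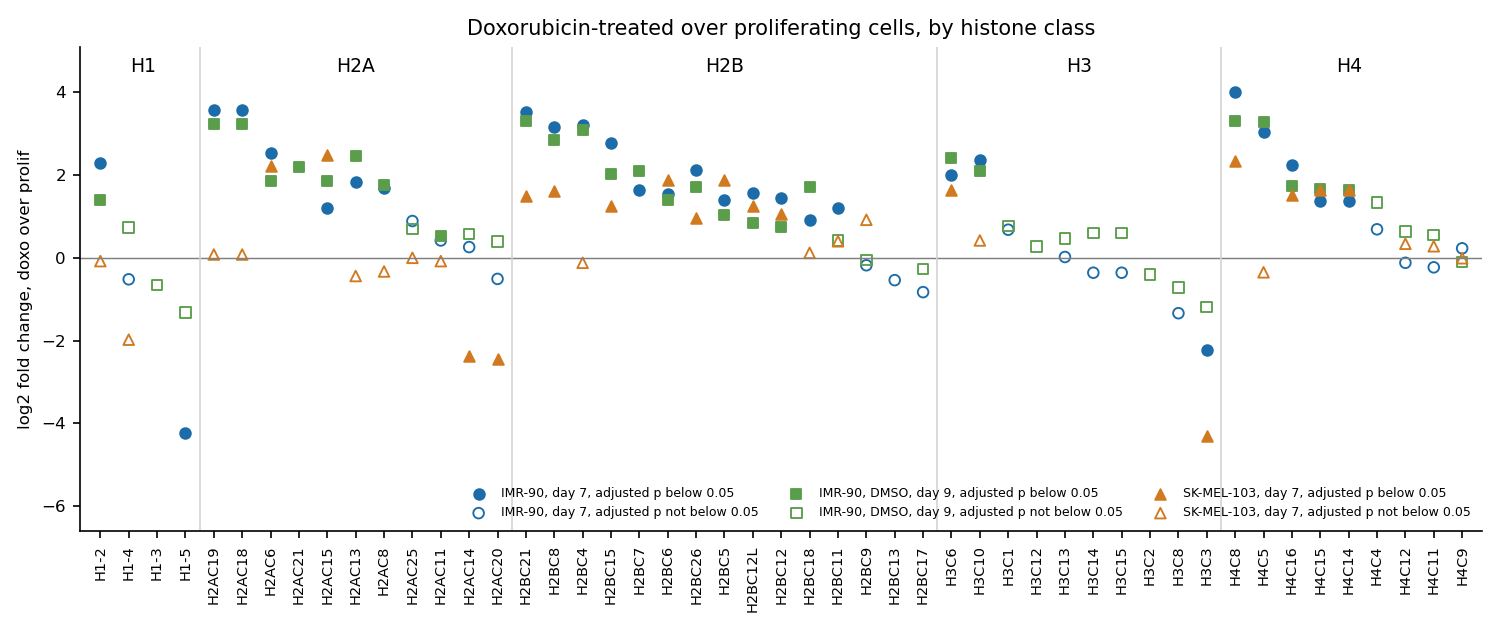
Fitted log2 fold change of each tested member, doxorubicin-treated over proliferating, ordered by histone class, with a symbol for each of the 3 comparisons; filled symbols have an adjusted p below 0.05. IMR-90 values reach 4.0 for H4C8, where SK-MEL-103 reaches 2.34; the lowest SK-MEL-103 value, H3C3, rests on 3 treated counts.

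The response to doxorubicin was smaller in SK-MEL-103 than in IMR-90 for some members, by a test of the difference in a fit of the 36 libraries of both siRNA experiments. The effect was lower in SK-MEL-103 for 14 of 45 members and higher for 0, where 9.33% of all 20892 genes tested were lower and 13% higher. DESeq2 called 16 lower, and 18 members had an unadjusted p below 0.05 in edgeR in either direction. H2AC18 had 5.05, 5.13 and 7.66 CPM after doxorubicin in SK-MEL-103, against 4.64, 7.67 and 4.14 CPM, a log2 fold change of 0.08 ± 0.22 with overlapping groups. Its difference from IMR-90 was -3.40 ± 0.53 on the log2 scale (adjusted p = 4.4e-05, edgeR). H2BC4, at 0.427, 0.501 and 0.993 CPM, against 0.672, 0.832 and 0.433 CPM, differed by -3.25 ± 0.49 (adjusted p = 2.6e-05, edgeR).

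H1-2 had 7.97, 8.15 and 10.1 CPM after doxorubicin in SK-MEL-103, against 10.6, 12.3 and 4.09 CPM, overlapping groups with a difference between lines of -2.28 ± 0.51 (adjusted p = 0.0017, edgeR). H2BC21 rose in both lines, but by less in SK-MEL-103, where it had 9.14, 9.37 and 13.3 CPM, against 3.89, 3.94 and 3.27 CPM; the difference was -1.95 ± 0.40 (adjusted p = 0.00082, edgeR). H4C5 differed by -3.27 ± 0.72 (adjusted p = 0.0015, edgeR). The remaining called differences rest on fewer counts or less clear margins. H2BC7 had 6 counts in all treated SK-MEL-103 libraries and H3C14 had 3, so their fitted differences of -3.40 and -3.36 are not read as sizes. Of the 14, 6 kept the call in every fit that left out a library and 8 lost it in at least 1, H4C8 (-1.56 ± 0.50) and H2BC8 (-1.45 ± 0.50) among them. Both, and H3C10, lost it without proliferating IMR-90 replicate 2, where the count of called members was again 14. The count was 8 without treated SK-MEL-103 replicate 1 or 2, and 9 without proliferating SK-MEL-103 replicate 2, treated IMR-90 replicate 2 or proliferating IMR-90 replicate 1.

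Some members have copies that short reads cannot tell apart. The coding sequences of H2AC18 and H2AC19 are identical, and their counts were 80509 and 80499 over the 48 libraries and never more than 7 apart in a library. H3C14 and H3C15 are also identical, with 1318 and 1319 counts and at most 1 apart. H4C11 and H4C12 are identical too but had 3476 and 3895 counts, up to 34 apart in a library, and H4C14 and H4C15 had 31147 and 29915, up to 85 apart. How the counting treated reads with more than 1 place is not given in the sources used here, so values within a pair are uncertain and a pair is not independent evidence. H2BC12 and H2BC12L differ at 4 of 381 coding bases. In addition the gene models of H3C14 and H4C14 overlap on opposite strands, as do those of H3C15 and H4C15. Those of H2AC15 and H2BC15, both called higher in all 3 doxorubicin comparisons, also overlap on opposite strands. On the same strand H2AC16 overlaps H2BC15, and H2AC17 overlaps H3C12. Whether counting used strand is not given either, so overlapping members may not be independent evidence. With each identical pair counted once, 24 members rose in IMR-90 on day 7, 25 on day 9 and 14 in SK-MEL-103.

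Members whose models run past the stem-loop, which can be counted when they end at a later poly(A) site, were described beside those whose models stop at the stop codon. Of the 21 with a transcript over 100 bases past the stem-loop, 15 of 21 tested rose on day 7, 15 of 21 on day 9 and 10 of 17 in SK-MEL-103. Of the 32 whose model ends at the stop codon, 3 of 11 tested rose on day 7, 4 of 14 on day 9 and 2 of 6 in SK-MEL-103. Over all genes tested, 25.9%, 28.3% and 29.4% were higher in these comparisons, and the counts for models that end at the stop codon lie near those shares. The difference between longer and shorter models was not tested, since a longer model also collects more reads. H4C8, H2BC21 and H2AC6 belong to the longer models, and H1-2 and H2BC12 to the shorter.

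The wider histone system moved the other way. Of the 20 S-phase genes listed, such as the MCM helicase subunits, all 20 were lower after doxorubicin on day 7 and day 9 in IMR-90 and in SK-MEL-103, with median log2 fold changes of -3.33, -2.80 and -3.19. Among 21 genes of histone mRNA synthesis, processing and decay, 15, 17 and 15 were lower and 3, 2 and 0 higher. Among 17 histone chaperones, 15, 15 and 14 were lower and 0, 0 and 1 higher. Over all genes tested, 23.6%, 26.2% and 29.9% were lower in these comparisons and 25.9%, 28.3% and 29.4% higher. The lists were drawn up with earlier results of these data known.

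SLBP, which binds the stem-loop, had 43.8, 43.1 and 43.3 CPM in doxorubicin-treated IMR-90 cells, against 123, 96.8 and 112 CPM, a log2 fold change of -1.38 ± 0.11 (adjusted p = 3.4e-07, edgeR). In SK-MEL-103 it had 28.2, 28.9 and 31.5 CPM, against 104, 89.0 and 81.5 CPM (-1.65 ± 0.09, adjusted p = 2.9e-10, edgeR). Groups did not overlap in either line. ERI1, the exonuclease that trims the histone message end, fell by 1.64 ± 0.10 in IMR-90 and 1.65 ± 0.10 in SK-MEL-103. NPAT, the activator of these genes, fell by 1.06 ± 0.16 and 0.87 ± 0.12, and its partner CASP8AP2 by 1.62 ± 0.25 and 1.12 ± 0.13.

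The kinase CDK2, which phosphorylates NPAT, had 25.8, 26.4 and 41.3 CPM in doxorubicin-treated IMR-90 cells, against 140, 130 and 130 CPM, and fell by 2.12 ± 0.24 on the log2 scale. Its cyclin CCNE2 fell by 2.64 ± 0.33 in IMR-90 and 4.65 ± 0.27 in SK-MEL-103. E2F1, an activator of S-phase genes, fell by 2.90 ± 0.36 and 4.42 ± 0.37. CDKN1A, the p21 inhibitor of these kinases, had 1977, 2022 and 2217 CPM after doxorubicin in IMR-90, against 304, 301 and 363 CPM, and rose by 2.65 ± 0.13.

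Replication-independent histones, most of whose messages have ordinary poly(A) tails, give a contrast within the same libraries. Of 11 listed, 9 fell and 1 rose in IMR-90 on day 7 (median log2 fold change -1.74). Day 9 gave the same counts (median -1.55). In SK-MEL-103, 8 of 9 tested fell and 0 rose (median -0.83, with 8 at an unadjusted p below 0.05, edgeR). Over all genes tested, 23.6% were lower on day 7, 26.2% on day 9 and 29.9% in SK-MEL-103. H2AX, which is phosphorylated at DNA breaks and also has a stem-loop form, had 35.1, 49.1 and 48.6 CPM after doxorubicin in IMR-90, against 463, 318 and 462 CPM (-3.26 ± 0.26, adjusted p = 2.8e-07, edgeR). H2AZ1 fell by 2.07 ± 0.23, H3-3B by 1.46 ± 0.19 and MACROH2A1 by 0.54 ± 0.10.

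H2AJ, a variant described in senescent fibroblasts, was the member of that list that rose in IMR-90, with 47.9, 32.0 and 56.8 CPM, against 20.9, 23.7 and 21.6 CPM (1.02 ± 0.19, adjusted p = 0.0006, edgeR). In SK-MEL-103 it was at 0.0138, 0 and 0 CPM, against 0 in each proliferating library.

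**Figure D4:**
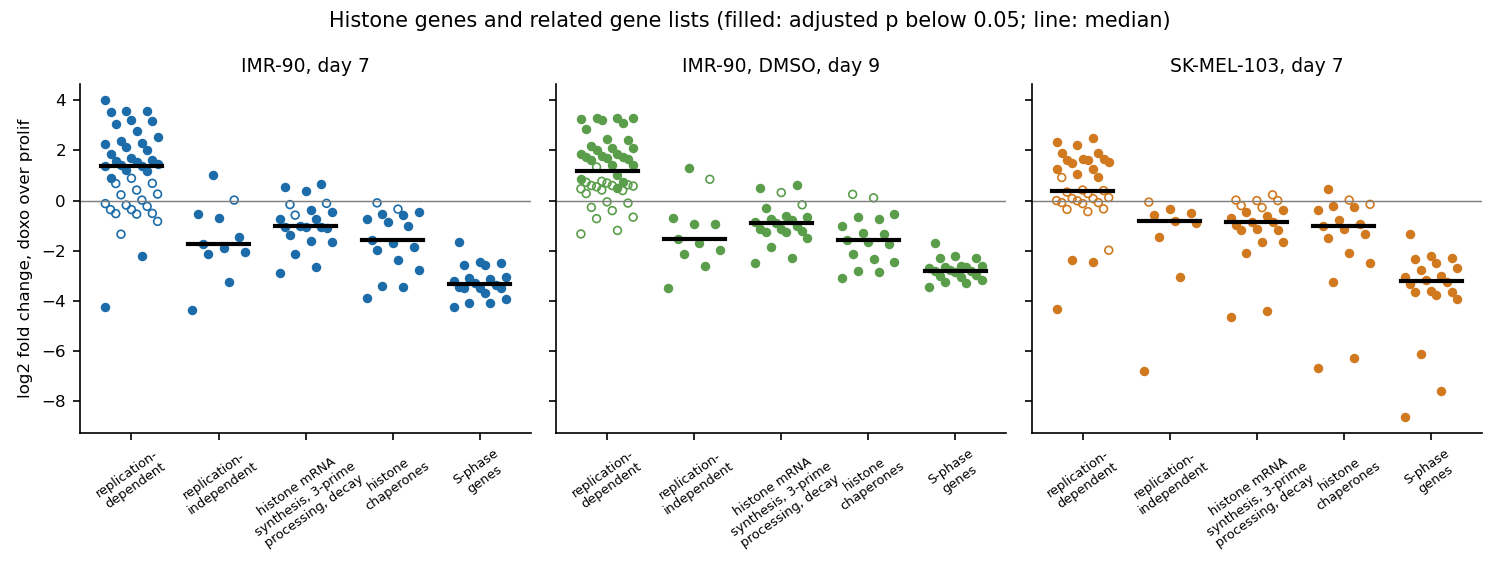
Fitted log2 fold changes, doxorubicin-treated over proliferating, of the tested replication-dependent histone genes and of 4 related lists in the 3 comparisons; filled points have an adjusted p below 0.05 and lines are medians. The histone medians are 1.38, 0.40 and 1.19 and the S-phase medians -3.33, -3.19 and -2.80 in IMR-90 day 7, SK-MEL-103 and IMR-90 day 9.

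Each siRNA lowered its target in doxorubicin-treated cells. MFN1 had 8.21, 7.76 and 7.10 CPM with siMFN1 in IMR-90, against 50.3, 64.5 and 38.5 CPM with cNEG, and its log2 fold change was -2.75 ± 0.29 there and -1.57 ± 0.16 in SK-MEL-103. MFN2 changed by -3.20 ± 0.13 and -2.29 ± 0.11 with siMFN2. With siMFN1+2 the changes were -2.10 ± 0.28 and -1.25 ± 0.16 for MFN1, and -3.14 ± 0.13 and -2.07 ± 0.11 for MFN2. MAVS changed by -1.52 ± 0.16 and -1.41 ± 0.15 with siMAVS, and edgeR called all of these at an adjusted p below 0.05.

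Summed histone levels were lower than with cNEG in the 3 mitofusin knockdowns of both lines in every library set against the same-numbered control. In IMR-90 the sum was 511, 664 and 311 CPM with siMFN1, 590, 688 and 409 with siMFN2 and 492, 658 and 398 with siMFN1+2, against 771, 849 and 578 CPM with cNEG. The ranges of each knockdown and the control overlapped. In SK-MEL-103 it was 143, 144 and 145 CPM with siMFN1, 140, 151 and 175 with siMFN2 and 101, 106 and 121 with siMFN1+2, against 179, 174 and 233 CPM with cNEG. Of these, siMFN2 overlapped with the control and the other two did not. The 4 siRNAs share their cNEG libraries in each line. Ribosomal RNA genes summed to 717, 1302 and 1841 CPM with siMFN1, 690, 1166 and 1374 with siMFN2 and 878, 1596 and 4010 with siMFN1+2 in IMR-90, against 772, 988 and 1413 CPM with cNEG. They were higher than the same-numbered control in 2, 1 and 3 of 3 pairs. In SK-MEL-103 they summed to 463, 951 and 378 CPM with siMFN1, 462, 444 and 282 with siMFN2 and 942, 520 and 312 with siMFN1+2, against 579, 598 and 347 CPM with cNEG, and were higher in 2, 0 and 1 of 3 pairs. Their part in the histone values was not tested.

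With siMAVS the sum was 638, 747 and 744 CPM in IMR-90 and 165, 160 and 203 CPM in SK-MEL-103, set against the same controls. Both overlapped with cNEG. In SK-MEL-103, 3 of 3 same-numbered pairs were below it. The IMR-90 siMAVS libraries were not treated as paired with cNEG, since same-numbered deviations correlated at -0.0715, 0.46 and -0.434. By its deposited library number, siMAVS replicate 3 also stood apart from replicate 3 of the other IMR-90 siRNA groups. What these library numbers mark is not stated. The siMAVS libraries of IMR-90 differed among themselves in the fibroblast markers, at 42181, 10811 and 8965 CPM. Those of the mitofusin knockdowns differed too, for example at 27669, 16346 and 50214 CPM with siMFN1.

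Without regard to replicate number, 1 member passed the test in the siRNA comparisons. In IMR-90 edgeR called 0 of 45 with siMFN1, siMFN2, siMFN1+2 and siMAVS, where 1.08%, 0.0839%, 1.01% and 0.204% of all genes were called in either direction. Counts at an unadjusted p below 0.05 were 8, 6, 11 and 1. DESeq2 called 1, 0, 2 and 0, with 4.52% of all genes called for siMFN1 and 4.54% for siMFN1+2. In SK-MEL-103 edgeR called 0, 0, 1 and 0 of 35, where 0.0892%, 0.0167%, 0.173% and 0.0836% of all genes were called, with 7, 6, 22 and 5 members at an unadjusted p below 0.05. DESeq2 called 0, 0, 8 and 0 there, with 0.385% of all genes for siMFN1+2. The share of all genes at an unadjusted p below 0.05 is not given. The counts at that threshold are therefore not read as particular to the members. The member called was H3C10 with siMFN1+2 (log2 fold change -1.55 ± 0.29, adjusted p = 0.029), and it lost the call without any 1 of the 6 libraries. Median log2 fold changes over the tested members were -0.52, -0.44, -0.47 and -0.16 in IMR-90 and -0.28, -0.44, -0.95 and -0.06 in SK-MEL-103.

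Same-numbered libraries deviated together, with correlations over 0.1 in every pair, in all siRNA comparisons except IMR-90 siMAVS, and so the replicate number was also fitted as a block over those doxorubicin-treated groups. This fit was chosen after the data were seen, and what a number marks is not stated apart from its depth. In IMR-90 it called 17, 15 and 19 of 42 members lower and 0 higher with siMFN1, siMFN2 and siMFN1+2, where 13.3%, 10.1% and 12.9% of all genes were lower, and the same groups without the block gave 0, 0 and 0. In SK-MEL-103 it called 4, 1 and 16 of 31 lower with the 3 knockdowns and 0 with siMAVS, where 2.41%, 0.437%, 0.942% and 0.386% of all genes were lower. Without the block these groups gave 0, 0, 3 and 0. A block over all groups of each experiment, proliferating cells and IMR-90 siMAVS included, ended most of these calls: it gave 0, 0 and 1 in IMR-90 and 0, 0, 3 and 0 in SK-MEL-103. Without siMFN1+2 replicate 3, which stood apart in ribosomal RNA genes, the paired block called 16 of 43 members lower in IMR-90, and without siMAVS replicate 2 it called 0 of 31 in SK-MEL-103. With siMAVS 5 members had an unadjusted p below 0.05 in the block fit. DESeq2 was not run with this block.

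In IMR-90, H1-2 had the lowest value with siMFN1, at 25.6, 38.2 and 17.4 CPM, against 82.2, 81.0 and 47.2 CPM with cNEG. The groups did not overlap, and the log2 fold change with the block was -1.43 ± 0.12 (adjusted p = 1.6e-05, edgeR). With siMFN2 it had 48.4, 58.7 and 33.0 CPM (-0.62 ± 0.12) and with siMFN1+2 31.1, 50.6 and 20.9 CPM (-1.09 ± 0.12), both overlapping with the control. H2AC18 had 35.0, 65.1 and 18.6 CPM with siMFN1, against 83.4, 87.5 and 61.8 CPM (-1.15 ± 0.18, adjusted p = 0.00072, edgeR) with 1 library inside the control range, and changed by -0.83 ± 0.18 with siMFN2 and -1.09 ± 0.18 with siMFN1+2. H2BC4 changed by -0.82 ± 0.15, -0.96 ± 0.15 and -0.71 ± 0.15, while H2AC6 moved less, by -0.30 ± 0.08, -0.28 ± 0.08 and -0.25 ± 0.08. Differences between the siRNAs were not tested.

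In SK-MEL-103 the 16 genes called with siMFN1+2 were 8 of 12 tested H2B, 3 of 8 H2A, 3 of 8 H4, 1 of 2 H3 and the tested H1 gene. H2BC12 had 15.4, 15.1 and 18.6 CPM, against 30.1, 26.3 and 38.9 CPM with cNEG (log2 fold change with the block -0.94 ± 0.08, adjusted p = 1.2e-05, edgeR), and H2AC6 had 24.4, 26.3 and 36.8 CPM, against 50.6, 45.9 and 72.5 CPM (-0.95 ± 0.08, adjusted p = 2e-05, edgeR). Neither gene's groups overlapped. H3C10 had 0.428, 0.476 and 0.418 CPM, against 1.34, 1.14 and 1.46 CPM (-1.55 ± 0.25), and H2BC5 changed by -1.12 ± 0.12. With siMFN1 the 4 genes called were H2BC5, H1-2, H2AC6 and H2BC12, at -0.72 ± 0.12, -0.69 ± 0.14, -0.64 ± 0.08 and -0.50 ± 0.08. With siMFN2 H2BC12 alone was called, at -0.38 ± 0.08, in a fit that takes the siMFN2 library with no number in its title as number 1.

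S-phase genes were mostly higher or not called in these knockdowns. In the block fit 16, 14 and 7 of the 20 were higher in IMR-90 with siMFN1, siMFN2 and siMFN1+2, and 0, 0 and 1 lower, with medians of 0.50, 0.44 and 0.19 on the log2 scale. In SK-MEL-103, 0, 1 and 1 were higher and 0 lower in each. The share of all genes called higher is not given beside these counts, so they are not read as particular to S-phase genes. The part of these genes in the histone values was not tested.

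**Figure D5:**
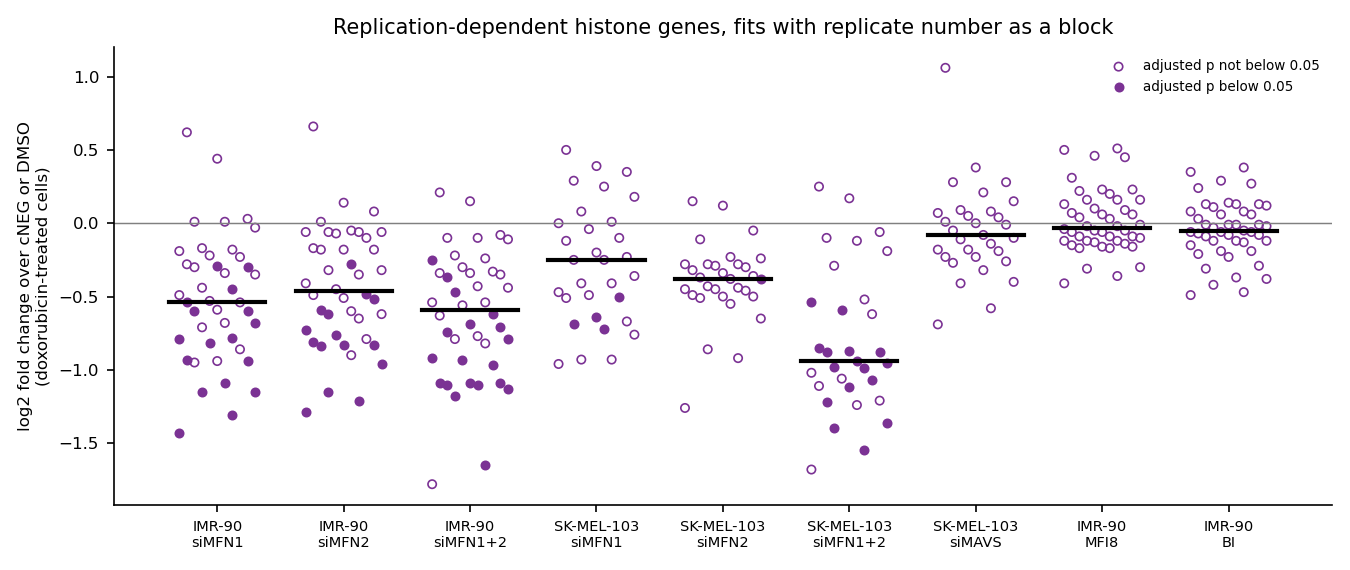
Fitted log2 fold changes of the tested members in doxorubicin-treated cells, each siRNA over cNEG and each compound over DMSO, from fits with the replicate number as a block; filled points have an adjusted p below 0.05 and lines are medians. Medians are -0.53, -0.46 and -0.59 for siMFN1, siMFN2 and siMFN1+2 in IMR-90, -0.25, -0.38, -0.94 and -0.08 for these and siMAVS in SK-MEL-103, and -0.03 and -0.05 for MFI8 and BI.

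Mean histone sums with the compounds lay within the range of the DMSO libraries, and the single libraries ran past that range on both sides. MFI8, given to inhibit the mitofusins, gave 907, 692 and 920 CPM, and BI, given to activate them, 925, 749 and 932 CPM, against 889, 753 and 894 CPM with DMSO. Log2 ratios of same-numbered libraries were 0.03, -0.12 and 0.04 for MFI8 and 0.06, -0.01 and 0.06 for BI. Neither compound had a called member among 48 tested, where 0% of all genes were called in either direction; 0 had an unadjusted p below 0.05 in edgeR and DESeq2 called 0. With the block, same-numbered libraries being correlated at 0.653 or more, 0 of 46 were called for each and 7 and 6 had an unadjusted p below 0.05, where 2.96% and 1.1% of all genes were called. H2AC18 had 110, 86.5 and 121 CPM with MFI8 and 112, 85.3 and 116 CPM with BI, against 99.7, 81.5 and 107 CPM. These values do not show that the compounds act alike or have no effect. The counts at an unadjusted p below 0.05 stand without their share over all genes.

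Profiles over the 48 libraries were compared with the median log2 CPM of the 35 members tested in all experiments. Among 20916 genes outside the member list, the most alike were H2BC20P (Pearson r = 0.956), ERN1 (0.952), ENSG00000282988 (0.950), ARRDC4 (0.947) and H2BC19P (0.946). The libraries share cell lines, treatments and depth by number, so these are descriptions without a p. H2BC19P and H2BC20P are annotated as H2B pseudogenes. Both were picked for likeness to the members over these same libraries, so their rise after doxorubicin is not separate evidence. Whether they share reads with H2B members was not examined. After doxorubicin H2BC19P rose by 1.62 ± 0.38 in IMR-90 on day 7, 1.46 ± 0.25 in SK-MEL-103 and 1.54 ± 0.33 on day 9, and H2BC20P by 1.78 ± 0.39, 1.10 ± 0.24 and 1.89 ± 0.36 on the log2 scale (all called by edgeR).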

How the data were processed

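The deposited table holds raw counts of reads per gene, whole numbers that the authors did not normalize. Per the submitters' processing notes, Trim Galore 0.6.7, STAR 2.7.10a, featureCounts and the GRCh38 genome were used; the annotation release, the strand setting, the treatment of reads with several places and whether replicates are separate cultures are not given in the sources used here, so p-values measure the spread between these libraries, which may be technical. Per the labels, the kit was stranded and poly(A)-selected, with 10 PCR cycles. There are no molecular identifiers.

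The software was edgeR 4.0.16 with limma 3.58.1, run under R 4.3.3, and version 1.17.8 of the data.table package. After filterByExpr and TMM scaling, the quasi-likelihood test was fitted over all groups of 1 experiment, with Benjamini-Hochberg adjustment over all genes and calls at an adjusted p below 0.05. The SE of a log2 value is its size divided by the root of the F statistic. No block was used in this fit. Counts at an unadjusted p below 0.05 are given without the share of all genes at that threshold and are descriptions only. The code was tested on simulated data. Alternatives were DESeq2 1.42.0, RLE scaling, no filter, other sample sets, a replicate block and leaving out each library. Group values are mean ± SD over 3 libraries. Among 48 pairs of libraries within groups, chi-square divided by its degrees of freedom was 11.1 or more, so none was a copy.

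Replicate numbers come from the titles; one SK-MEL-103 siMFN2 library has none and was taken as number 1. They were treated as pairing libraries where every same-numbered pair's deviations from group means correlated above 0.1. This held for the siRNA comparisons other than IMR-90 siMAVS (0.144 to 0.722) and for both compounds (0.653 to 0.880). It did not hold for the doxorubicin comparisons, where the lowest was -0.54 in IMR-90 on day 7. On day 9 the values were 0.099, 0.0806 and 0.169, near that limit, and every library correlated best with its own number.

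The members and the lists were chosen with earlier results of these data known. The text names the 12 members with the highest mean CPM, up to 6 highest and 6 lowest called members per comparison, fixed regulators and markers, the 5 genes most like the members' median profile (log2 CPM with a prior count of 2), and members set apart by sequence; other members are named after their values were seen. Symbols were matched for 48880 of 48898 genes. Gene models and transcripts are from GENCODE 29, and the counting may have used another release.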

Additional observations from a re-analysis of the deposited data

Results flagged for a closer look

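The response to doxorubicin differed between the lines for 14 members by a test of the difference itself (edgeR, SK-MEL-103 effect minus IMR-90 effect, log2 scale, 36 libraries). All 14 values were negative, a lower effect in SK-MEL-103. H2A genes were H2AC18 at -3.40, H2AC19 at -3.39, H2AC8 at -1.93 and H2AC20 at -1.83. H2B genes were H2BC4 at -3.25, H2BC21 at -1.95, H2BC8 at -1.45 and H2BC7 at -3.40. H3C10 was at -1.85 and H3C14 and H3C15 at -3.36 each, H4C5 at -3.27 and H4C8 at -1.56, and the linker gene H1-2 at -2.28. H2BC7 had 6 counts over the treated SK-MEL-103 libraries and H3C14 had 3, so the fitted values of H2BC7, H3C14 and H3C15 are not read as sizes. H2AC18 and H2AC19, and H3C14 and H3C15, are pairs of identical coding sequence and count as 1 observation each. The 6 that kept the call when any 1 library was left out were H2AC18, H2AC19, H2BC4, H4C5, H1-2 and H2BC21. With 3 libraries in each group no search for single deviating libraries was made.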

How the results depend on the processing

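Leaving out 1 library at a time gave 20 to 25 members higher and 1 to 2 lower after doxorubicin in IMR-90 on day 7, 24 to 29 higher and 0 to 1 lower on day 9, and 13 to 17 higher and 3 to 7 lower in SK-MEL-103. The difference between lines gave 8 to 16, and every siRNA and compound comparison 0, SK-MEL-103 siMFN1+2 included. Log2 ratios of the sums ranged over 1.95 to 2.36 for day 7, 1.71 to 1.96 for day 9 and 1.02 to 1.42 for SK-MEL-103. With no filter on low counts, 6 members were lower in IMR-90 on day 7 and 12 in SK-MEL-103, and 2 were called for SK-MEL-103 siMFN1 and 9 for siMFN1+2. With all 48 libraries in 1 fit, 10 were lower in SK-MEL-103 after doxorubicin, and 1, 2 and 0 were called for IMR-90 siMFN1, IMR-90 siMFN1+2 and SK-MEL-103 siMFN1+2. DESeq2 called 1, 2 and 8 for the same comparisons, and the libraries of the comparison alone gave 2 for SK-MEL-103 siMFN1+2. The replicate block over all groups of an experiment gave 3 members lower on day 9, and 1 called for IMR-90 siMFN1+2 and 3 for SK-MEL-103 siMFN1+2. The replicate block over paired groups alone gave 17, 15 and 19 for IMR-90 siMFN1, siMFN2 and siMFN1+2 and 4, 1 and 16 for SK-MEL-103, and the same SK-MEL-103 groups without the block gave 3 for siMFN1+2. Without IMR-90 siMFN1+2 replicate 3 the paired block gave 16 for that comparison. The cause of these changes was not tested. In the doxorubicin comparisons the block moved the number of members called higher by less than 1.5 times. No result changed direction under any alternative that was run, and RLE scaling changed no count by over 1.5 times. Members with few counts, H1-5, H3C3, H2AC14 and H2AC20 among them, are limited by depth.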
